A study of Mus musculus with 9 samples.

Results

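Gene expression in colonic tissue was compared between a berberine group and a high-fat diet group of WT mice, with 3 sequenced libraries in each group. The comparison used 6 of the 9 libraries of the series and covered 14506 of 55401 genes in the deposited table, namely those with a mean of at least 1 FPKM (fragments per kilobase of transcript and per 1000000 fragments) over the 9 libraries. The rule on FPKM used the level of a gene and not its difference between the groups. A gene high in only 1 group can still pass it through that group, so list counts that hold such genes are descriptions. The series title asks which expression changes go with an antitumour action of berberine. Its other 3 libraries came from a chow diet group and serve here only as a reference level. The labels give the treatment of each group as berberine, high fat diet or chow diet, and the titles of the high-fat diet and chow libraries add AOM/DSS. This abbreviation commonly means azoxymethane, a carcinogen, with dextran sulfate sodium, an irritant, given together to raise tumours in an inflamed colon. For the berberine group neither a diet nor AOM/DSS is given, so berberine, diet and AOM/DSS cannot be told apart in this comparison. Strain, age, sex, dose, duration and the part of the colon sampled are not given in the sources used here. Nothing ties a library to a separate mouse, and the p-values measure only the spread between these samples, which may be technical.

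Berberine is a yellow plant alkaloid that is poorly absorbed from the gut and is known to inhibit mitochondrial respiration and to activate the energy sensor AMPK in cultured cells. The colonic lining is renewed from stem cells at the crypt base, which Wnt ligands keep dividing by stabilising β-catenin, and daughter cells mature into absorptive colonocytes, mucus-secreting goblet cells and hormone-secreting cells as they move up. Active Wnt signalling also switches on genes of its own brakes, such as Axin2, Nkd1 and Notum, and these are high in most intestinal tumours. Mature colonocytes burn short-chain fatty acids in their mitochondria and carry the transporters and drug-metabolising enzymes of the mucosa.

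The libraries held 51961764 to 69007117 estimated counts each. A principal component analysis put 58.1% of the variance on component 1, where high-fat diet scores ran from 73.4 to 79.6 and all other scores from -40.9 to -34.2. The second component, with 10.1%, set apart chow replicates 2 (-46.7) and 3 (42.2). A level of each marker list was taken per library as its mean log2(CPM + 1), less the high-fat diet mean, where CPM is counts per 1000000 counts of the scaled library. Adipocyte genes stood at 4.8 and 4.49 in berberine replicates 1 and 2, at 0.521 in replicate 3 and at 1.89 to 2.79 on chow, while mast cell genes ran from -1.6 to 1.86 and smooth muscle genes from -0.904 to 1.27 over the high-fat diet libraries. The tissue label was checked on epithelial markers: Epcam, the adhesion protein of gut epithelium, was at 1386, 1877 and 2078 CPM with berberine and 1609, 1782 and 1922 on the high-fat diet (log2 fold change 0.01 ± 0.18, adjusted p = 0.98). Krt8, a keratin of the same cells, was at 3958, 3909 and 4528 CPM with berberine and 2474, 3877 and 3540.2 on the high-fat diet (log2 fold change 0.33 ± 0.22, adjusted p = 0.296). These are 2 members of a general epithelial list of 12, of which 2 others were called higher and 1, the keratin Krt18, lower. Values per gene are CPM in replicates 1, 2 and 3, and log2 fold changes are berberine over high-fat diet ± SE.

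Of the 14506 genes tested, 4460 (30.7%) changed at an adjusted p under 0.05, with 2292 (15.8%) higher and 2168 (14.9%) lower in the berberine group. A change of at least 2-fold was called for 2371 genes, 1381 higher and 990 lower, and one of at least 8-fold for 391, of which 261 were lower. The values of the 3 and 3 libraries did not overlap for 7317 genes (50.4%). A lack of overlap is thus common, and where it is given for a gene below it only describes the values. The median log2 fold change over all tested genes was -0.01. Scaling by library totals alone moved that median to -0.12 and gave 1864 higher and 2689 lower genes, and limma on log2(FPKM + 1) gave 1862 and 2703. Leaving out berberine replicate 2 reduced the calls to 2960, and leaving out berberine replicates 1 and 2 together, an alternative chosen after seeing the data, reduced them to 1321. In bulk tissue, fewer cells of a type and less RNA per cell cannot be told apart, here and for every group below. The shares of 15.8% higher and 14.9% lower are the background for every list count below. In some lists 1 lower member averaged under 1 FPKM outside the high-fat diet group and passed the filter through it. These were the lists for drug metabolism, Notch, intestinal identity, bile acids, phospholipids, amino acid shortage, squamous epithelium, and T and NK cells. In the prostaglandin, enteroendocrine, Notch and adipocyte lists 1 higher member passed likewise through the berberine group. These counts are therefore descriptions. List counts of 0 to 2 in a direction rest on single genes, and they moved by at most 3 when any 1 library was left out, except for smooth muscle and enteric neuron genes.

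**Figure D1:**
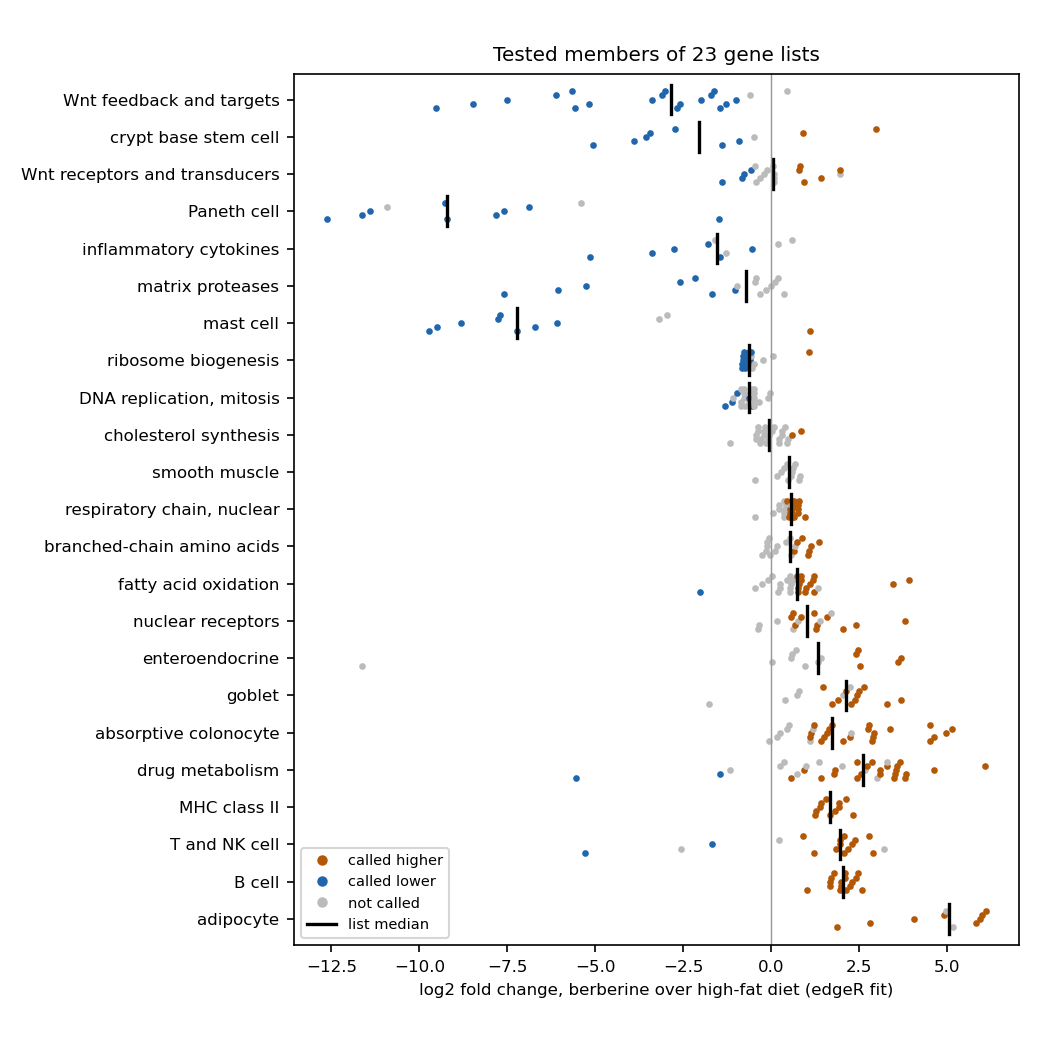
Log2 fold change of berberine over high-fat diet (x axis, edgeR fit) for each tested member of 23 gene lists (rows). Points are genes, coloured by call at an adjusted p under 0.05, and black bars are list medians. The medians of the Wnt feedback, mast cell and Paneth cell lists lie to the left of 0. Those of the drug metabolism, colonocyte, goblet, MHC class II and B cell lists lie to the right.

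Of the 10 genes with the smallest p-values, 9 were high on the high-fat diet and fell in the berberine group, and 1, Selenbp1, rose. Erich3 (chromosome 3, 154663859 to 154767790 on the GRCm38 build) was at 0.756, 1.06 and 0.824 CPM with berberine and 122, 144 and 95.6 on the high-fat diet (log2 fold change -7.09 ± 0.24, adjusted p = 3.75e-06). Prox1, a homeobox factor of lymphatic vessels that is also a Wnt target in colon tumours (chromosome 1, 190118035 to 190170714), was at 9.28, 6.80 and 6.48 CPM with berberine and 397, 387 and 348 on the high-fat diet (log2 fold change -5.65 ± 0.19, adjusted p = 3.75e-06). Spock2, a secreted proteoglycan, was at 21.0, 23.6 and 24.4 CPM with berberine and 2677, 1789 and 1436 on the high-fat diet (log2 fold change -6.42 ± 0.28, adjusted p = 2.41e-05). In each of them the lowest high-fat diet library lay at least 30 times above the highest berberine library. Chow values were 2.09, 2.21 and 1.84 CPM for Erich3, 7.14, 8.81 and 7.53 CPM for Prox1 and 33.7, 28.6 and 35.6 CPM for Spock2. Ptpro, a receptor tyrosine phosphatase (log2 fold change -4.13 ± 0.20, adjusted p = 3.14e-05), Gpc1, a heparan sulfate proteoglycan of the cell surface (log2 fold change -2.96 ± 0.15, adjusted p = 3.14e-05), Sorcs2, a sorting receptor (log2 fold change -2.73 ± 0.13, adjusted p = 3.14e-05), Tubb2b, a β-tubulin (log2 fold change -2.86 ± 0.15, adjusted p = 3.14e-05), and Plxnb1, a semaphorin receptor (log2 fold change -2.38 ± 0.12, adjusted p = 3.34e-05), fell likewise. Krt7, a keratin of ducts and simple epithelia that is scarce in healthy colon, was at 127, 107 and 119 CPM with berberine and 639, 608 and 569.9 on the high-fat diet (log2 fold change -2.36 ± 0.12, adjusted p = 3.14e-05).

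A group of genes was read on the high-fat diet and not at all in the berberine group. For these the fold is a lower bound, computed against a floor of 12 estimated counts over the berberine libraries, taken as 3 fragments of about 4 counts each. A smaller number of counts per fragment would lower the floor and raise the bounds. T, which encodes the embryonic mesoderm factor brachyury, was at 71.0, 21.1 and 14.8 CPM on the high-fat diet and at 0 in all berberine and chow libraries, at least 565-fold lower (adjusted p = 0.00342). High-fat diet replicate 1 was the highest of the 3, and without it the fitted log2 fold change moved from -14.10 to -13.07. Cyp21a1, the steroid 21-hydroxylase of the adrenal gland, was at 32.1, 27.7 and 12.8 CPM and at least 367-fold lower with berberine (adjusted p = 0.001). Upk3a, a plaque protein of the bladder lining, was at 16.0, 9.17 and 14.6 CPM and at least 202-fold lower (adjusted p = 0.000635). Cldn6, an embryonic claudin, was at 8.91, 10.5 and 11.03 CPM and at least 151-fold lower (adjusted p = 0.000449). These 4 genes belong to tissues other than the adult colon, and all 4 were at 0 in every chow library as well. Rdh16f1, a retinol dehydrogenase family gene, was at 111, 19.2 and 20.1 CPM and at least 805-fold lower (adjusted p = 0.0296), but its call was lost without any 1 of berberine replicates 1 to 3 or high-fat diet replicates 1 and 2 (fitted values -14.98 to -13.20, adjusted p 0.0503 to 0.0727). Mybpc1, a myosin-binding protein of muscle, was at 10.7, 3.74 and 5.92 CPM, at least 106-fold lower (adjusted p = 0.0351) and lost its call without any 1 of the 6 libraries compared (adjusted p 0.0607 to 0.0828). On chow Rdh16f1 was at 0, 6.15 and 0 CPM and Mybpc1 at 0.931, 0.0754 and 29.1 CPM.

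α-Defensins, the antimicrobial peptides that Paneth cells of the small intestine secrete and that the colon normally lacks, made up the other large falls. Defa35 was at 23.5, 26.4 and 26.4 CPM on the high-fat diet and 0 in every berberine and chow library, at least 379-fold lower (adjusted p = 0.000229). Defa5 was at 14.2, 13.2 and 11.1 CPM, at least 193-fold lower (adjusted p = 0.000398), and Defa23 and Defa34 were at least 185-fold and 148-fold lower (adjusted p = 0.00102 and 0.000449). Defa17 was at 0.116, 0.119 and 0 CPM with berberine and 24.6, 53.4 and 65.7 on the high-fat diet (log2 fold change -9.22 ± 0.87, adjusted p = 0.000717). The α-defensin genes are near-identical copies between which reads can be split, so the value of each single gene is uncertain, while these 5 were read in every high-fat diet library. Defa30, the last of the 12 largest falls, was at 0, 0.0298 and 0 CPM with berberine and 22.8, 44.9 and 56.8 on the high-fat diet (adjusted p = 0.000287). Of 14 Paneth cell genes, 11 were tested and 9 fell (81.8%, against 14.9% of all genes), with a median log2 fold change of -9.22, or -7.59 with the 5 members at or under the floor set to their bound. The α-defensins among them passed the FPKM filter through the high-fat diet group alone, so this count is only a description. Pla2g2a, a secreted phospholipase that limits tumours in the mouse intestine, was at 12.7, 26.6 and 71.9 CPM with berberine and 13280.0, 6125 and 5987 on the high-fat diet (log2 fold change -7.83 ± 1.08, adjusted p = 0.00133), and at -8.76 without berberine replicate 3, where it was highest. Mmp7, the protease that activates mouse α-defensins, was at 0.368, 1.44 and 1.05 CPM with berberine and 216, 221 and 123 on the high-fat diet (log2 fold change -7.59 ± 1.18, adjusted p = 0.00228).

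Wnt feedback genes fell almost as a group: 18 of 20 tested were lower in the berberine group and none was higher, with a median log2 fold change of -2.86 against -0.01 over all tested genes. Of the 18, 6 averaged under 1 FPKM over the berberine and chow libraries and passed the filter through the high-fat diet group, so the count is a description. Axin2, a scaffold of the complex that destroys β-catenin and the standard readout of Wnt activity (chromosome 11, 108920349 to 108950783), was at 32.5, 39.7 and 37.8 CPM with berberine and 300.0, 376 and 471 on the high-fat diet (log2 fold change -3.38 ± 0.32, adjusted p = 0.000287). Nkd1, an inhibitor of Dishevelled, was at 21.1, 22.6 and 14.6 CPM with berberine and 1030.0, 577 and 494 on the high-fat diet (log2 fold change -5.17 ± 0.35, adjusted p = 6.64e-05). Notum, a secreted enzyme that strips the lipid from Wnt ligands, was at 0.233, 0.670 and 0.264 CPM with berberine and 386, 225 and 276 on the high-fat diet (log2 fold change -9.54 ± 0.70, adjusted p = 9.8e-05). The groups were far apart for all 3 genes, and Notum was close to 0 in the berberine and chow libraries. Without berberine replicate 2 its log2 fold change was -10.20. Rnf43 and Znrf3, the pair of ubiquitin ligases that remove Wnt receptors from the cell surface, were 8.16-fold and 6.02-fold lower (log2 fold changes -3.03 ± 0.23 and -2.59 ± 0.23, adjusted p = 0.000114 and 0.00023). Apcdd1, a membrane inhibitor of Wnt, was at 9.05, 7.44 and 2.65 CPM with berberine and 401, 252 and 269 on the high-fat diet (log2 fold change -5.59 ± 0.50, adjusted p = 0.000229).

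Wif1, a secreted protein that traps Wnt ligands, was at 2.46, 4.21 and 3.46 CPM with berberine and 1091, 415 and 351 on the high-fat diet (log2 fold change -7.51 ± 0.79, adjusted p = 0.000437), and at -6.81 without high-fat diet replicate 1. Transcription factors and growth genes of the list fell as well. Lef1, a DNA-binding partner of β-catenin, was at 7.89, 4.96 and 5.96 CPM with berberine and 50.7, 31.4 and 39.2 on the high-fat diet (log2 fold change -2.69 ± 0.31, adjusted p = 0.000586). Sox4, a progenitor factor, was 8.68-fold lower (log2 fold change -3.12 ± 0.25, adjusted p = 0.00013). Myc was at 40.4, 21.6 and 30.6 CPM with berberine and 87.3, 105 and 109 on the high-fat diet (log2 fold change -1.70 ± 0.26, adjusted p = 0.00204). Ccnd1, cyclin D1, was at 84.3, 61.4 and 56.1 CPM with berberine and 233, 324 and 249 on the high-fat diet (log2 fold change -1.997 ± 0.19, adjusted p = 0.000287). In both of these genes of cell growth the lowest high-fat diet library was above the highest berberine library. Dkk2 (log2 fold change -6.11 ± 0.71, adjusted p = 0.000623) and Dkk3 (log2 fold change -1.64 ± 0.29, adjusted p = 0.0041), secreted proteins of the Dickkopf family, fell, as did Tcf7 (log2 fold change -1.47 ± 0.30, adjusted p = 0.00695) and Ephb3, the receptor that positions crypt cells (log2 fold change -1.004 ± 0.13, adjusted p = 0.00115). The 2 members without a call were Cd44 and Nkd2. Cd44, an adhesion receptor, was at 45.3, 45.3 and 41.9 CPM with berberine and 89.3, 74.3 and 37.2 on the high-fat diet (log2 fold change -0.60 ± 0.31, adjusted p = 0.181). Nkd2, a relative of Nkd1, was at 6.61, 9.17 and 5.06 CPM with berberine and 2.92, 2.66 and 9.63 on the high-fat diet (log2 fold change 0.45 ± 0.50, adjusted p = 0.518). In both, high-fat diet replicate 3 lay on the other side from replicates 1 and 2, and without it each was called (log2 fold changes -0.90 and 1.299).

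Sp5, a direct target of β-catenin that is at or near 0 outside the high-fat diet libraries, was at 0.446, 0 and 0.0659 CPM with berberine and 86.7, 43.1 and 43.6 on the high-fat diet (log2 fold change -8.48 ± 0.998, adjusted p = 0.000655). Its values without berberine replicates 1 and 2 in turn were -10.75 and -7.84. The promoter of Sp5 is shown because it is 1 of only 2 among the Wnt feedback genes whose 250 bases before the start held a TCF/LEF motif, the sequence that β-catenin partners bind. The letters CTTTG, with A or T at each of the next 2 positions, were searched on both strands, and matches are in capitals. Sequences are from RefSeq on GRCm38.p6.

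Sp5 promoter, chr2:70474673-70474922, + strand: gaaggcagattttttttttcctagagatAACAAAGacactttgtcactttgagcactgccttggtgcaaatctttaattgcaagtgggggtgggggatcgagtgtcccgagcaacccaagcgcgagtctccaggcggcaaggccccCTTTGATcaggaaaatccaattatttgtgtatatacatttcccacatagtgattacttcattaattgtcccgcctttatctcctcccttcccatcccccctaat

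The matches in Sp5 start 222 and 104 bases before the start. Of the 20 Wnt feedback genes, 14 had a promoter in the RefSeq table, with 20 windows, and 2 of those windows (10%) held a match, those of Sp5 and Lef1, against 14.8% of all 32851 windows. Notum, Znrf3, Apcdd1, Dkk3, Myc and Ccnd1 had no window in the table.

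**Figure D2:**
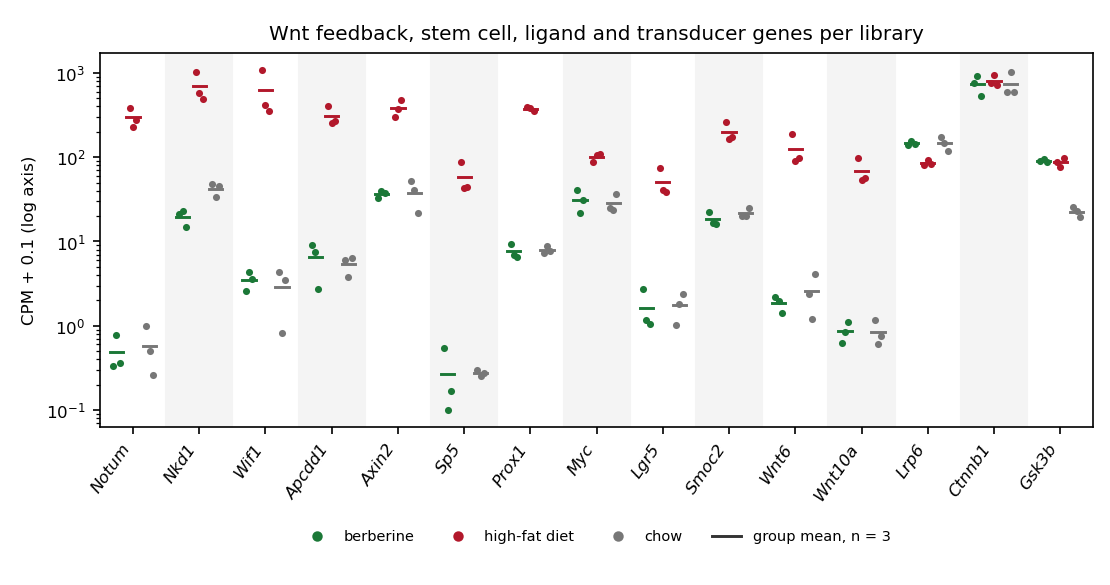
CPM + 0.1 on a log axis (y) in each library for 15 genes of the Wnt pathway and the crypt base (x), with berberine in green, high-fat diet in red and chow in grey; horizontal lines are means of 3 libraries. From Notum to Wnt10a the high-fat diet points lie above all others, while Ctnnb1 overlaps between groups and Gsk3b is low only on chow.

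Of the crypt base stem cell markers 7 of 10 tested fell (against 14.9% of all genes) and 2 rose, with a median of -2.06. Of the 7, 2 averaged under 1 FPKM over the berberine and chow libraries and passed the filter through the high-fat diet group. The count is therefore a description. Smoc2 was at 22.5, 16.4 and 16.0 CPM with berberine and 262, 164 and 175 on the high-fat diet (log2 fold change -3.45 ± 0.24, adjusted p = 7.04e-05), and Tnfrsf19, also called Troy, was 11.7-fold lower (log2 fold change -3.55 ± 0.29, adjusted p = 0.000146). Lgr5, the receptor that marks these stem cells, was at 2.60, 1.07 and 0.956 CPM with berberine and 75.03, 40.7 and 38.2 on the high-fat diet (log2 fold change -5.06 ± 0.55, adjusted p = 0.000476), and its log2 fold change without berberine replicate 1 was -5.66. Ascl2, the transcription factor of the stem cell state, was at 8.22, 9.78 and 8.54 CPM with berberine and 32.9, 59.6 and 82.9 on the high-fat diet (log2 fold change -2.72 ± 0.51, adjusted p = 0.00491). High-fat diet replicate 1 had the lowest Ascl2 of its group but the highest Lgr5, and no berberine library reached any high-fat diet library for either. Msi1, an RNA-binding protein, was 14.9-fold lower (log2 fold change -3.896 ± 0.60, adjusted p = 0.00209). Aqp4, a water channel, rose (log2 fold change 2.99 ± 0.67, adjusted p = 0.011, and 2.15 without berberine replicate 3). Olfm4 was not tested.

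Of the Wnt ligands and secreted antagonists, 9 of 15 were tested. Of these 1 was higher, 2 lower and 6 not called, with a median of 0.07. The 2 lower members were ligands. Both averaged under 1 FPKM over the berberine and chow libraries and passed the filter through the high-fat diet group. Their falls are therefore only a description. Wnt6 was at 2.09, 1.88 and 1.33 CPM with berberine and 187, 90.6 and 97.4 on the high-fat diet (log2 fold change -6.15 ± 0.55, adjusted p = 0.00023). Wnt10a was at 0.523, 0.744 and 1.01 CPM with berberine and 96.4, 54.0 and 56.9 on the high-fat diet (log2 fold change -6.50 ± 0.42, adjusted p = 5.99e-05). Both were also low on chow, at 2.29, 1.11 and 4.03 CPM and 1.06, 0.509 and 0.664 CPM. Wnt5a, a ligand of the stroma, was at 4.67, 16.0 and 13.8 CPM with berberine and 36.0, 8.33 and 12.4 on the high-fat diet (log2 fold change -0.72 ± 0.74, adjusted p = 0.489), with overlapping groups; without high-fat diet replicate 1 its value was 0.16. Receptors and transducers showed no common direction, with 5 of 19 higher, 4 lower and a median of 0.04. Lrp6, a co-receptor, was at 138, 157 and 143 CPM with berberine and 80.3, 92.0 and 82.0 on the high-fat diet (log2 fold change 0.78 ± 0.14, adjusted p = 0.00476). Lgr4, the receptor for R-spondins, and Fzd5, a Frizzled receptor, were 1.76-fold and 2.67-fold higher (log2 fold changes 0.81 ± 0.15 and 1.42 ± 0.31, adjusted p = 0.00473 and 0.00984). Fzd6 and the β-catenin cofactor Bcl9 were 2.66-fold and 1.70-fold lower (log2 fold changes -1.41 ± 0.14 and -0.77 ± 0.12, adjusted p = 0.000314 and 0.00256).

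The mRNAs of β-catenin and of most of the complex that destroys it were not called. Ctnnb1, β-catenin itself, was at 768, 917 and 539 CPM with berberine and 757, 942 and 715 on the high-fat diet (log2 fold change -0.12 ± 0.27, adjusted p = 0.768). Apc, the tumour suppressor of this complex (log2 fold change 0.04 ± 0.28, adjusted p = 0.933), and Axin1 (log2 fold change 0.08 ± 0.12, adjusted p = 0.66) had overlapping values. Gsk3b, the kinase that marks β-catenin for destruction, was at 90.1, 94.3 and 88.6 CPM with berberine and 87.0, 76.3 and 97.5 on the high-fat diet (log2 fold change 0.07 ± 0.14, adjusted p = 0.742). On chow Gsk3b was at 25.4, 22.6 and 19.5 CPM, so the berberine and high-fat diet libraries lay together and far above chow. Csnk1a1, the priming kinase, was at 209, 212 and 228 CPM with berberine and 274, 345 and 348 on the high-fat diet (log2 fold change -0.57 ± 0.13, adjusted p = 0.0114).

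Of 24 genes of DNA replication and mitosis 5 were lower (20.8%, against 14.9% of all genes), none higher and 19 not called, with a median of -0.64. Mki67, the proliferation antigen, was at 124, 155 and 103 CPM with berberine and 160.0, 162 and 219 on the high-fat diet (log2 fold change -0.50 ± 0.29, adjusted p = 0.229). Mcm7, a subunit of the replicative helicase, was at 79.9, 50.6 and 49.3 CPM with berberine and 107, 129.9 and 117 on the high-fat diet (log2 fold change -0.98 ± 0.21, adjusted p = 0.00964). Cdk1, the mitotic kinase, was at 19.2, 22.3 and 14.4 CPM with berberine and 45.8, 31.4 and 44.6 on the high-fat diet (log2 fold change -1.13 ± 0.22, adjusted p = 0.0062). The groups overlapped for none of these 3 genes, which holds for 50.4% of all genes, and Mki67 was not called. The count of lower members was 11 with scaling by library totals, 13 with DESeq2, 12 with only the 6 libraries compared, and 13 and 12 with limma at pseudocounts of 1 and 0.1. It was 2 without berberine replicate 2 or 3 or high-fat diet replicate 2, 10 without berberine replicate 1, and 8 and 12 without chow replicates 1 and 3. Ribosome biogenesis, the assembly of ribosomes in the nucleolus and a programme that Myc drives, had 14 of 20 members lower and 1 higher, with a median of -0.64. Leaving out berberine replicate 2 left 3 of them lower, and berberine replicate 3 left 4, while high-fat diet replicate 1 left 9 and replicate 2 left 5. Npm1, nucleophosmin, was at 292, 317 and 230.4 CPM with berberine and 424, 443 and 429.7 on the high-fat diet (log2 fold change -0.63 ± 0.15, adjusted p = 0.014). Pes1, a processing factor, was 1.66-fold lower (log2 fold change -0.73 ± 0.14, adjusted p = 0.0052), and so was Wdr43 by 1.79-fold (log2 fold change -0.84 ± 0.18, adjusted p = 0.00889). Of the ribosomal proteins themselves 1 of 21 was lower and none higher, with a median of -0.23.

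Notch, BMP and EGF pathway genes moved in both directions. Notch1, a receptor, was at 36.9, 37.6 and 32.3 CPM with berberine and 72.4, 87.6 and 85.3 on the high-fat diet (log2 fold change -1.20 ± 0.13, adjusted p = 0.000449). Its ligand Jag2 was 4.10-fold lower (log2 fold change -2.04 ± 0.20, adjusted p = 0.00031). The ligand Dll1, which marks secretory progenitors, rose, at 31.1, 19.1 and 22.6 CPM with berberine and 12.1, 12.01 and 12.5 on the high-fat diet (log2 fold change 0.99 ± 0.21, adjusted p = 0.00846). Hes6, a helix-loop-helix factor, was 4.92-fold lower (log2 fold change -2.30 ± 0.15, adjusted p = 6.07e-05), and the Notch target Hes1 was not called (log2 fold change -0.43 ± 0.19, adjusted p = 0.128). In all, 4 of 14 Notch genes were higher and 6 lower, with 2 higher without berberine replicate 1 or high-fat diet replicate 3. Bambi, a decoy receptor that blunts BMP signals, was at 11.1, 10.6 and 8.58 CPM with berberine and 37.0, 32.5 and 50.4 on the high-fat diet (log2 fold change -1.99 ± 0.22, adjusted p = 0.000509). All 3 high-fat diet libraries lay above all 3 berberine libraries. Of 21 BMP genes 2 were higher and 6 lower, with 3 lower without berberine replicate 2 or high-fat diet replicate 1. Of 9 genes on the list of EGF family ligands, receptors and a receptor inhibitor 2 were higher and 4 lower, with 1 lower without berberine replicate 2 or 3 or high-fat diet replicate 1 or 2. Tgfa, an EGF receptor ligand, was 2.10-fold lower (log2 fold change -1.07 ± 0.20, adjusted p = 0.00483). The receptors Erbb2 and Erbb3 were 1.57-fold and 2.41-fold higher (log2 fold changes 0.65 ± 0.13 and 1.27 ± 0.23, adjusted p = 0.00753 and 0.00481).

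Genes of the regenerating epithelium, which appear after injury, had 6 of 15 lower and none higher. Anxa1, a protein that restrains inflammation, was at 137, 142 and 115 CPM with berberine and 229.6, 316 and 319 on the high-fat diet (log2 fold change -1.13 ± 0.24, adjusted p = 0.00818). Clu was at 625, 595 and 489.8 CPM with berberine and 631, 305 and 252 on the high-fat diet (log2 fold change 0.53 ± 0.38, adjusted p = 0.32). Ly6a, also called Sca-1, was at 177, 131 and 147 CPM with berberine and 145, 62.0 and 115 on the high-fat diet (log2 fold change 0.50 ± 0.43, adjusted p = 0.41). The groups were apart for Anxa1 and overlapped for Clu and Ly6a. Without high-fat diet replicate 1, which held the highest Clu, Clu was called higher in the berberine group (1.05). Cldn4, a tight junction protein, was 8.91-fold lower with berberine (log2 fold change -3.16 ± 0.27, adjusted p = 0.000195), and Krt18, a keratin of simple epithelia, 2.67-fold lower (log2 fold change -1.42 ± 0.15, adjusted p = 0.000449).

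Genes of mature absorptive colonocytes were higher in the berberine group: 21 of 29 tested rose and none fell, with a median of 1.73, against 15.8% of all genes higher. Aqp8, the water channel of surface colonocytes (chromosome 7, 123462291 to 123468004), was at 243, 497 and 520.1 CPM with berberine and 20.1, 13.8 and 6.71 on the high-fat diet (log2 fold change 4.95 ± 0.47, adjusted p = 0.000287). Slc26a3, the chloride-bicarbonate exchanger, was at 436, 685 and 562 CPM with berberine and 39.6, 25.8 and 8.95 on the high-fat diet (log2 fold change 4.50 ± 0.52, adjusted p = 0.000621). Car4, a membrane carbonic anhydrase, was at 765, 881 and 1219 CPM with berberine and 56.2, 56.7 and 11.7 on the high-fat diet (log2 fold change 4.52 ± 0.56, adjusted p = 0.000848). The highest high-fat diet value of each gene was below the lowest berberine value, and high-fat diet replicate 3 was the lowest library for all 3. Chow values were 573, 773 and 721 CPM for Aqp8, 854, 575 and 871 CPM for Slc26a3 and 847, 854 and 841 CPM for Car4, so the berberine libraries overlapped the chow range for Slc26a3 and Car4 and lay below it for Aqp8. Slc5a8, the transporter of butyrate, was at 145, 189 and 251 CPM with berberine and 22.6, 22.2 and 11.6 on the high-fat diet (log2 fold change 3.38 ± 0.39, adjusted p = 0.000635). Muc3, a membrane mucin, was at 1668, 1481 and 2841 CPM with berberine and 239, 325 and 228 on the high-fat diet (log2 fold change 2.92 ± 0.31, adjusted p = 0.000449). Smaller rises were measured for Krt20, the keratin of surface cells (log2 fold change 1.63 ± 0.33, adjusted p = 0.0076), and Scnn1a, a subunit of the epithelial sodium channel (log2 fold change 1.51 ± 0.21, adjusted p = 0.00135). Vil1, villin of the brush border, was not called (log2 fold change 0.50 ± 0.22, adjusted p = 0.117), and without high-fat diet replicate 2 it was called higher (0.75).

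Selenbp1, the enzyme that oxidises methanethiol made by gut bacteria, was at 980.2, 1178 and 1698 CPM with berberine and 37.9, 40.6 and 30.2 on the high-fat diet (log2 fold change 5.15 ± 0.27, adjusted p = 3.34e-05). Its copy Selenbp2 was at 112, 156 and 166 CPM with berberine and 3.27, 4.91 and 2.82 on the high-fat diet (log2 fold change 5.30 ± 0.31, adjusted p = 4.72e-05), and reads may be shared between these close relatives. Both are among the 12 largest rises. Others among the 12, whose value no single library moved by over 1.5 times, were Sult1a1, a sulfotransferase of phenols, at 174, 148 and 333 CPM with berberine and 7.24, 7.97 and 11.3 on the high-fat diet (log2 fold change 4.62 ± 0.44, adjusted p = 0.000287), Rims4, a regulator of secretion (log2 fold change 4.87 ± 0.43, adjusted p = 0.000228), and Itih2, a plasma protease inhibitor chain (log2 fold change 4.88 ± 0.88, adjusted p = 0.00416). Slc30a10, the exporter that clears manganese, was at 56.6, 61.3 and 80.2 CPM with berberine and 0, 0.498 and 0.145 on the high-fat diet (log2 fold change 8.31 ± 1.03, adjusted p = 0.00081), the largest rise by this rule. It was near 0 in all high-fat diet libraries, and its value was 7.70 and 9.88 without replicates 1 and 2 of that group. Pck1, the rate-limiting enzyme of glucose production, was at 248, 241 and 256 CPM with berberine and 14.0, 7.28 and 3.28 on the high-fat diet (log2 fold change 4.92 ± 0.49, adjusted p = 0.00033), and at 5.57 without high-fat diet replicate 1. Btnl1, an epithelial protein that maintains intraepithelial γδ T cells (log2 fold change 4.64 ± 0.76, adjusted p = 0.00278), and Ces1e, a carboxylesterase (log2 fold change 6.07 ± 0.91, adjusted p = 0.00193), were at 5.89 and 7.30 without the same library. Cyp2e1, an ethanol-oxidising cytochrome, was at 117, 73.3 and 2.78 CPM with berberine and 0.776, 1.597 and 1.13 on the high-fat diet (log2 fold change 5.79 ± 1.16, adjusted p = 0.00681). It was far higher in berberine replicates 1 and 2, where the adipocyte list level was also highest, than in replicate 3. On chow, where that level was between these, Cyp2e1 was at 5.06, 11.7 and 10.5 CPM, and a link was not tested. The log2 fold change of Cyp2e1 was 5.03 without berberine replicate 1 and 1.26 without berberine replicates 1 and 2. Ces2d-ps, a carboxylesterase pseudogene (log2 fold change 6.63 ± 1.65, adjusted p = 0.017), lost its call without high-fat diet replicate 1 (log2 fold change 6.03, adjusted p = 0.051). It stood at 11.57 without replicate 2 and 4.95 without berberine replicate 3.

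**Figure D3:**
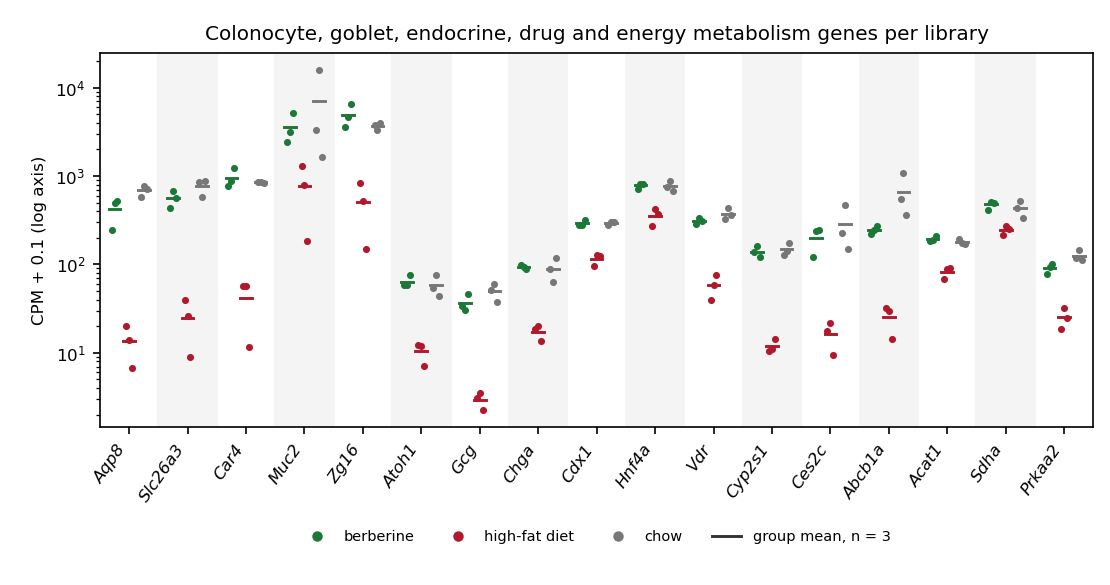
CPM + 0.1 on a log axis (y) in each library for 17 genes of colonocytes, goblet and endocrine cells, drug metabolism and energy metabolism (x), coloured by group, with lines at the means of 3 libraries. The berberine points lie above the high-fat diet points for every gene shown and close to chow for most.

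Goblet cell genes rose as well, with 11 of 17 higher, none lower and a median of 2.13. Atoh1, the factor that commits cells to the secretory lineages, was at 58.2, 58.0 and 75.7 CPM with berberine and 12.03, 11.99 and 7.02 on the high-fat diet (log2 fold change 2.63 ± 0.28, adjusted p = 0.000455). Tff3, trefoil factor 3, was at 1144, 1388 and 1658 CPM with berberine and 348, 267 and 124 on the high-fat diet (log2 fold change 2.50 ± 0.37, adjusted p = 0.00172). Klk1, a kallikrein, was at 666, 767 and 1464 CPM with berberine and 119, 70.8 and 35.2 on the high-fat diet (log2 fold change 3.69 ± 0.55, adjusted p = 0.00197). None of the 3 overlapped between groups. Agr2, which folds mucins, and Spdef, a factor of goblet cell maturation, were 4.80-fold and 3.69-fold higher (log2 fold changes 2.26 ± 0.42 and 1.88 ± 0.38, adjusted p = 0.0047 and 0.00677). Muc2, the mucin that forms the mucus gel, was at 2432, 3157 and 5125 CPM with berberine and 1308, 790.0 and 185 on the high-fat diet (log2 fold change 2.23 ± 0.92, adjusted p = 0.099). Its groups did not overlap, which holds for 50.4% of all genes, and it was not called. On chow it was at 3330.1, 15909 and 1649 CPM, and without chow replicate 2 it was called (2.22, adjusted p = 0.0408). High-fat diet replicate 1 also moved the value of Muc2, to 2.89 when left out. The goblet list level in the high-fat diet libraries was 0.629, 0.285 and -0.914, so the spread within that group was wide.

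Enteroendocrine genes had 5 of 13 higher and none lower. Gcg, which encodes the precursor of GLP-1, was at 33.9, 30.4 and 45.7 CPM with berberine and 2.99, 3.45 and 2.16 on the high-fat diet (log2 fold change 3.68 ± 0.27, adjusted p = 9.91e-05). Insl5, a hormone of the distal colon, was at 75.7, 72.3 and 124 CPM with berberine and 12.3, 6.39 and 3.99 on the high-fat diet (log2 fold change 3.59 ± 0.50, adjusted p = 0.00134). Chga, the granule protein chromogranin A, was at 99.2, 94.5 and 89.6 CPM with berberine and 18.3, 20.0 and 13.6 on the high-fat diet (log2 fold change 2.45 ± 0.24, adjusted p = 0.000323). All berberine libraries were above all high-fat diet libraries for these hormones. Pyy, made in the same cells as Gcg, was at 207, 202 and 233 CPM with berberine and 107, 89.3 and 239 on the high-fat diet (log2 fold change 0.56 ± 0.43, adjusted p = 0.351), with high-fat diet replicate 3 above the berberine libraries. Avil, advillin of tuft cells, the chemosensory cells of the lining, was at 5.33, 8.35 and 5.82 CPM with berberine and 152, 102 and 53.8 on the high-fat diet (log2 fold change -3.98 ± 0.44, adjusted p = 0.000513), and 6 of 12 tuft genes were tested, with 1 higher and 1 lower. Defining genes of tuft cells such as Dclk1, Trpm5 and Pou2f3 were too low to be tested.

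Among transcription factors of intestinal identity, 7 of 17 rose and 2 fell. Cdx1, a caudal homeobox factor, was at 276, 279 and 322 CPM with berberine and 94.6, 129 and 123 on the high-fat diet (log2 fold change 1.34 ± 0.14, adjusted p = 0.000419). Klf4, which halts division in surface cells, was at 666, 821 and 685 CPM with berberine and 138, 163 and 110.3 on the high-fat diet (log2 fold change 2.40 ± 0.17, adjusted p = 8.26e-05). Hnf4a, the nuclear factor of absorptive genes, was at 715, 818 and 807 CPM with berberine and 275, 423 and 371 on the high-fat diet (log2 fold change 1.13 ± 0.18, adjusted p = 0.00268). Berberine values lay near the chow values for each, at 282, 298 and 305 CPM, 722, 674 and 695 CPM and 754, 878 and 683 CPM on chow. Elf3, an epithelial factor, was not called (log2 fold change 0.08 ± 0.14, adjusted p = 0.675). The general epithelial list had 2 of 12 higher and 1 lower (25% called, against 30.7% of all genes), with a median of 0.23.

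Drug metabolism genes showed 22 of 34 higher and 2 lower, with a median of 2.61. Cyp2s1, a cytochrome P450 of epithelia, was at 136, 162 and 119.7 CPM with berberine and 10.3, 10.97 and 14.3 on the high-fat diet (log2 fold change 3.56 ± 0.20, adjusted p = 4.62e-05). Ces2c, a carboxylesterase, was at 122, 236 and 245 CPM with berberine and 17.4, 21.5 and 9.29 on the high-fat diet (log2 fold change 3.64 ± 0.52, adjusted p = 0.00155). Abcb1a, the pump P-glycoprotein, for which berberine is a known substrate, was at 218, 246 and 270.5 CPM with berberine and 31.8, 30.0 and 14.1 on the high-fat diet (log2 fold change 3.27 ± 0.45, adjusted p = 0.00134). In these 3 genes each berberine library was at least 5 times any high-fat diet library. Adh1, alcohol dehydrogenase, was 8.53-fold higher (log2 fold change 3.09 ± 0.36, adjusted p = 0.00065), Abcg2, another efflux pump, 5.42-fold (log2 fold change 2.44 ± 0.48, adjusted p = 0.00639), and Maob, monoamine oxidase B, 5.89-fold (log2 fold change 2.56 ± 0.20, adjusted p = 0.000139). Cyp2c55, a P450 of the proximal colon, was at 37.6, 61.2 and 66.5 CPM with berberine and 5.77, 2.49 and 3.33 on the high-fat diet (log2 fold change 3.83 ± 0.81, adjusted p = 0.00854), but chow libraries were at 819.9, 3419 and 344 CPM, so the berberine libraries lay between the other groups. Gsta4, which clears lipid aldehydes, was lower, at 45.9, 56.0 and 39.7 CPM with berberine and 88.8, 155 and 145 on the high-fat diet (log2 fold change -1.46 ± 0.26, adjusted p = 0.00379).

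Nuclear receptors, some of which control these enzymes, had 11 of 18 members higher and none lower. Vdr, the vitamin D receptor, was at 287, 333 and 307 CPM with berberine and 39.8, 58.2 and 75.5 on the high-fat diet (log2 fold change 2.42 ± 0.23, adjusted p = 0.000287). Nr1i2, the drug sensor PXR, was at 84.6, 80.7 and 99.5 CPM with berberine and 29.3, 35.6 and 42.4 on the high-fat diet (log2 fold change 1.303 ± 0.15, adjusted p = 0.000635). Nr1h4, the bile acid receptor FXR, was at 40.4, 37.8 and 51.4 CPM with berberine and 10.9, 16.4 and 15.6 on the high-fat diet (log2 fold change 1.596 ± 0.26, adjusted p = 0.00255). No berberine library overlapped a high-fat diet library for any of the 3. Nr5a2, a receptor of crypt cells and local steroid synthesis, was 13.8-fold higher (log2 fold change 3.79 ± 0.44, adjusted p = 0.000651), and Nr3c2, the mineralocorticoid receptor, 4.10-fold (log2 fold change 2.04 ± 0.22, adjusted p = 0.000472). Ahr, the receptor for aryl hydrocarbons, was at 28.7, 26.8 and 25.9 CPM with berberine and 34.6, 38.2 and 31.5 on the high-fat diet (log2 fold change -0.36 ± 0.14, adjusted p = 0.0878). Of the bile acid genes 3 of 9 rose, among them Slc51b, a bile acid exporter subunit, at 10.3, 8.44 and 13.3 CPM with berberine and 2.01, 1.91 and 0.451 on the high-fat diet (log2 fold change 2.87 ± 0.61, adjusted p = 0.00891). Slc10a2, the bile acid importer, had overlapping values (log2 fold change 0.36 ± 0.43, adjusted p = 0.565).

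Of 29 fatty acid oxidation genes 14 rose and 1 fell, with a median of 0.74. Acat1, which ends ketone and fatty acid breakdown, was at 182, 189 and 212 CPM with berberine and 68.8, 89.2 and 90.9 on the high-fat diet (log2 fold change 1.23 ± 0.14, adjusted p = 0.000501). Hadhb, a subunit of the trifunctional protein, was at 116, 109.7 and 123 CPM with berberine and 49.6, 59.2 and 52.9 on the high-fat diet (log2 fold change 1.11 ± 0.17, adjusted p = 0.00211). Acadm, the medium-chain dehydrogenase, was 1.97-fold higher (log2 fold change 0.98 ± 0.17, adjusted p = 0.00356). Each was separated between groups in all libraries. Cpt1a, the gate of long-chain fatty acids into mitochondria, was at 120.0, 179 and 157 CPM with berberine and 107, 109 and 99.0 on the high-fat diet (log2 fold change 0.54 ± 0.28, adjusted p = 0.185). Cd36, a fatty acid transporter that adipocytes and capillaries also express, was at 72.7, 87.1 and 14.3 CPM with berberine and 3.70, 4.36 and 3.397 on the high-fat diet (log2 fold change 3.93 ± 0.61, adjusted p = 0.00219). Berberine replicates 1 and 2, in which adipocyte genes were high, held most of it, and without them the log2 fold change was 1.899 (adjusted p = 0.0249). Ppargc1a, the coactivator of mitochondrial genes, was at 28.1, 43.2 and 34.7 CPM with berberine and 14.4, 15.8 and 15.4 on the high-fat diet (log2 fold change 1.21 ± 0.18, adjusted p = 0.00194).

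Nuclear genes of the respiratory chain had 16 of 26 higher and none lower, with a median of 0.56, and 6 and 8 higher without berberine replicate 3 and high-fat diet replicate 1. Sdha, of complex II, was at 417, 513 and 499 CPM with berberine and 216, 274 and 252 on the high-fat diet (log2 fold change 0.94 ± 0.18, adjusted p = 0.00562). Uqcrc2, of complex III, was at 302, 329.7 and 353 CPM with berberine and 198, 218 and 219 on the high-fat diet (log2 fold change 0.63 ± 0.12, adjusted p = 0.00583). Ndufa9, of complex I, and Atp5o, of ATP synthase, were 1.505-fold and 1.52-fold higher (log2 fold changes 0.59 ± 0.11 and 0.60 ± 0.13, adjusted p = 0.00466 and 0.0106). Of the 13 mitochondrially encoded genes none was higher and 1 was lower. The complex IV gene mt-Co1 was at 24033, 26003 and 31411 CPM with berberine and 15537, 14397 and 30880.0 on the high-fat diet (log2 fold change 0.42 ± 0.43, adjusted p = 0.484), with high-fat diet replicate 3 at the berberine level. Branched-chain amino acid breakdown had 7 of 19 higher and none lower. Aldh6a1, of the valine branch, was at 40.7, 39.4 and 35.6 CPM with berberine and 11.7, 17.3 and 15.8 on the high-fat diet (log2 fold change 1.37 ± 0.17, adjusted p = 0.000806), and Pccb, of propionate use, was 2.06-fold higher (log2 fold change 1.04 ± 0.16, adjusted p = 0.00193). The first step, Bcat2, was not called (log2 fold change -0.05 ± 0.14, adjusted p = 0.816). Slc16a3, the lactate exporter of glycolytic cells, was at 23.1, 43.1 and 29.1 CPM with berberine and 169, 166 and 145 on the high-fat diet (log2 fold change -2.33 ± 0.32, adjusted p = 0.00128). In all, 2 of 23 glycolysis and hypoxia genes were higher and 2 lower (17.4% called, against 30.7% of all genes).

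AMPK genes were examined because berberine is known as an activator of this kinase. Of 21 tested, 6 were higher and 2 lower (38.1% called, against 30.7% of all genes). Prkaa2, the α2 catalytic subunit, was at 78.1, 93.9 and 101 CPM with berberine and 18.5, 32.3 and 24.6 on the high-fat diet (log2 fold change 1.86 ± 0.22, adjusted p = 0.000635). Prkaa1, the α1 subunit, was at 62.7, 69.3 and 68.7 CPM with berberine and 70.9, 81.9 and 80.4 on the high-fat diet (log2 fold change -0.22 ± 0.28, adjusted p = 0.589). On chow Prkaa2 was at 118, 146 and 112 CPM, above every berberine value, so the high-fat diet libraries were the lowest of the 9. Sesn1, a sestrin that restrains mTORC1, was 2.15-fold higher (log2 fold change 1.10 ± 0.17, adjusted p = 0.0021), and Tsc1, of the complex that AMPK acts on, 1.73-fold (log2 fold change 0.79 ± 0.13, adjusted p = 0.00304). These are mRNA levels, and the activity of the kinase was not measured. Cholesterol synthesis genes were near 0 as a list, with 2 of 24 higher, none lower and a median of -0.07.

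Phospholipid genes moved both ways, with 8 of 26 higher and 8 lower, the latter 4 without berberine replicate 1 or 2. Lpcat4, an acyltransferase that consumes lysophosphatidylcholine, was at 26.6, 24.1 and 21.5 CPM with berberine and 166, 156 and 152 on the high-fat diet (log2 fold change -2.71 ± 0.18, adjusted p = 6.63e-05). Mboat2, of the same activity, was at 4.48, 4.97 and 5.12 CPM with berberine and 31.3, 28.7 and 28.8 on the high-fat diet (log2 fold change -2.61 ± 0.45, adjusted p = 0.00372), and Pla2g12a, a secreted phospholipase, was 5.76-fold lower (log2 fold change -2.53 ± 0.19, adjusted p = 9.8e-05). Enpp2, autotaxin, which turns lysophosphatidylcholine into lysophosphatidic acid, was at 75.3, 69.8 and 69.1 CPM with berberine and 13.5, 11.2 and 6.46 on the high-fat diet (log2 fold change 2.78 ± 0.32, adjusted p = 0.000586). Lpar1, a receptor for that product, was at 62.5, 58.2 and 76.0 CPM with berberine and 21.0, 21.6 and 27.1 on the high-fat diet (log2 fold change 1.497 ± 0.18, adjusted p = 0.00068). Lpcat4 and Mboat2 were thus lower and Enpp2 and Lpar1 higher in every berberine library than in any high-fat diet library. Mboat1, another acyltransferase of the family, was higher (log2 fold change 1.54 ± 0.20, adjusted p = 0.000999). Fads1, the Δ5 desaturase, was lower (log2 fold change -1.28 ± 0.21, adjusted p = 0.00275), and Acss2, which activates acetate, higher (log2 fold change 1.29 ± 0.19, adjusted p = 0.00157).

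In the list for metals, selenium and redox, 10 of 27 genes rose and 4 fell, with 2 lower without berberine replicate 1 or 2, high-fat diet replicate 1 or chow replicate 1, with no filter on low values or with only the 6 libraries compared. Selenop, the selenium carrier, was at 895, 1337 and 976 CPM with berberine and 137, 125 and 128 on the high-fat diet (log2 fold change 3.04 ± 0.21, adjusted p = 6.81e-05). Slc40a1, ferroportin, the iron exporter, was at 173, 296 and 267 CPM with berberine and 66.2, 54.8 and 47.1 on the high-fat diet (log2 fold change 2.13 ± 0.22, adjusted p = 0.000398). Prdx6, a peroxiredoxin, was at 641, 783 and 1384 CPM with berberine and 169, 156 and 121 on the high-fat diet (log2 fold change 2.65 ± 0.35, adjusted p = 0.00109). Mt2, a metallothionein that binds zinc, was at 15.3, 25.9 and 10.6 CPM with berberine and 131, 61.0 and 134 on the high-fat diet (log2 fold change -2.65 ± 0.53, adjusted p = 0.00677). Its neighbour Mt1 was at 61.8, 93.3 and 46.6 CPM with berberine and 129.6, 80.0 and 134 on the high-fat diet (log2 fold change -0.77 ± 0.40, adjusted p = 0.178). Slc39a8, an importer of zinc and manganese, was at 14.1, 13.2 and 14.4 CPM with berberine and 95.3, 77.9 and 83.7 on the high-fat diet (log2 fold change -2.62 ± 0.45, adjusted p = 0.00352). The manganese exporter Slc30a10 rose and this importer fell, with no overlap between the groups for either. For Slc30a10 the rule that named it required this, and it held for 50.4% of all genes. In the list of genes that respond to amino acid shortage or endoplasmic reticulum stress, 5 of 22 were higher, 4 lower and 13 not called, with a median of -0.29, 2 higher under scaling by library totals and 3 with no filter on low values. The lower members included Slc7a5, the leucine transporter, at 3.42-fold (log2 fold change -1.77 ± 0.19, adjusted p = 0.000411), Psat1, of serine synthesis, at 2.18-fold (log2 fold change -1.12 ± 0.23, adjusted p = 0.00677), and Asns, asparagine synthetase, at 1.96-fold (log2 fold change -0.97 ± 0.20, adjusted p = 0.00748). Leaving out any 1 of the 6 libraries left 0 to 3 higher: berberine replicates 1, 2 and 3 gave 3, 2 and 0 when left out in turn, and those of the high-fat diet 3, 3 and 1.

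Among heat shock genes 4 of 17 rose and 1 fell, so 29.4% were called, against 30.7% of all genes. Hspa1a, the inducible Hsp70, was at 100.3, 155 and 139.9 CPM with berberine and 9.62, 4.81 and 10.4 on the high-fat diet (log2 fold change 3.99 ± 0.37, adjusted p = 0.000267). Hspa1b was at 191, 240.3 and 270.3 CPM with berberine and 43.2, 28.2 and 44.3 on the high-fat diet (log2 fold change 2.60 ± 0.25, adjusted p = 0.000287). Hsph1, a partner of Hsp70, was at 134, 150.0 and 187 CPM with berberine and 93.6, 70.4 and 54.7 on the high-fat diet (log2 fold change 1.11 ± 0.24, adjusted p = 0.0104). On chow these were at 48.0, 33.7 and 25.6 CPM, 85.5, 84.4 and 55.5 CPM and 38.0, 41.8 and 26.1 CPM, so the berberine libraries were the highest of all 9. Hspa8, the constitutive Hsp70, was not called (log2 fold change 0.26 ± 0.21, adjusted p = 0.376), nor was Hsp90aa1 (log2 fold change 0.56 ± 0.29, adjusted p = 0.18), which was called without chow replicate 3 (0.55, adjusted p = 0.0476). Hspa1a and Hspa1b are near-identical copies between which reads can be split, and their promoters differed at 1 of 150 bases compared. The Hspa1a promoter is shown because this gene moved most in the list, with the core GAANNTTC of the heat shock element, searched on both strands, in capitals.

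Hspa1a promoter, chr17:34972157-34972306, - strand: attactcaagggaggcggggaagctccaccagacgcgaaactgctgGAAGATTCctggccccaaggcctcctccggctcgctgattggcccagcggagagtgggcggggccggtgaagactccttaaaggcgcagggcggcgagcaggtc

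The match starts 104 bases before the start. In all, 12 of the 17 heat shock genes had a promoter in the RefSeq table, with 17 windows, of which 6 (35.3%) held the core in the 250 bases before the start, against 6.69% of all windows. These were the windows of Hspa1a, Hspa1b, Dnaja1, Hspb1, Hspd1 and Hspe1, and the last 4 of these genes were not called. Hspa8, Hsp90aa1, Hsp90ab1, Cryab and Hsf1 had no window in the table.

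Inflammatory cytokines had 6 of 10 tested members lower and none higher, with a median of -1.53, and Il6, Il17a, Il22 and Ifng were too low to be tested. Of the 6, 3 averaged under 1 FPKM over the berberine and chow libraries and passed the filter through the high-fat diet group. Tnf was at 11.8, 7.35 and 5.44 CPM with berberine and 25.4, 21.5 and 20.2 on the high-fat diet (log2 fold change -1.45 ± 0.32, adjusted p = 0.0103). Lif, of the interleukin 6 family, was at 9.94, 3.32 and 4.84 CPM with berberine and 20.2, 27.4 and 14.9 on the high-fat diet (log2 fold change -1.79 ± 0.41, adjusted p = 0.0116). Il23a, the specific subunit of interleukin 23, was at 1.395, 0.491 and 0.461 CPM with berberine and 34.5, 20.7 and 27.9 on the high-fat diet (log2 fold change -5.15 ± 0.53, adjusted p = 0.000378), and at -5.86 without berberine replicate 1. All berberine libraries were below all high-fat diet libraries for these 3, and berberine replicate 1 was the highest of its group for each. Il1b was at 13.6, 6.61 and 6.29 CPM with berberine and 39.7, 17.8 and 6.68 on the high-fat diet (log2 fold change -1.28 ± 0.58, adjusted p = 0.128) and was called without high-fat diet replicate 3 (-1.72), while without high-fat diet replicate 1 it was at -0.45.

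Chemokines moved both ways, with 7 of 18 higher and 4 lower. Of the 4, 3 averaged under 1 FPKM over the berberine and chow libraries and passed the filter through the high-fat diet group. Cxcl2, which draws neutrophils, was at 0.484, 0.357 and 0.0659 CPM with berberine and 23.8, 13.7 and 8.21 on the high-fat diet (log2 fold change -5.65 ± 0.72, adjusted p = 0.000933), and Cxcl1, of the same kind, was 10.2-fold lower (log2 fold change -3.36 ± 0.51, adjusted p = 0.00203, and -3.96 without berberine replicate 1). Ccl28, an epithelial chemokine for plasma cells, was at 137, 198 and 217 CPM with berberine and 25.4, 26.3 and 15.7 on the high-fat diet (log2 fold change 3.04 ± 0.31, adjusted p = 0.000362). Ccl21a, of lymphatic vessels and lymphoid tissue, was at 118, 83.7 and 114 CPM with berberine and 16.6, 11.6 and 14.9 on the high-fat diet (log2 fold change 2.87 ± 0.33, adjusted p = 0.000589). Both were near the chow level, at 210.1, 145 and 115 CPM and 116, 64.5 and 161 CPM. Ccl19 and Cxcl13, chemokines of T cell zones and B cell follicles, were 10.2-fold and 3.65-fold higher (log2 fold changes 3.35 ± 0.64 and 1.87 ± 0.30, adjusted p = 0.00573 and 0.00264). Ccl20, which draws lymphocytes to the epithelium, was at 38.1, 75.5 and 31.3 CPM with berberine and 19.5, 12.8 and 12.04 on the high-fat diet (log2 fold change 1.71 ± 0.38, adjusted p = 0.0103). Ccl21a has near-identical copies in the mouse genome, so its value is uncertain.

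**Figure D4:**
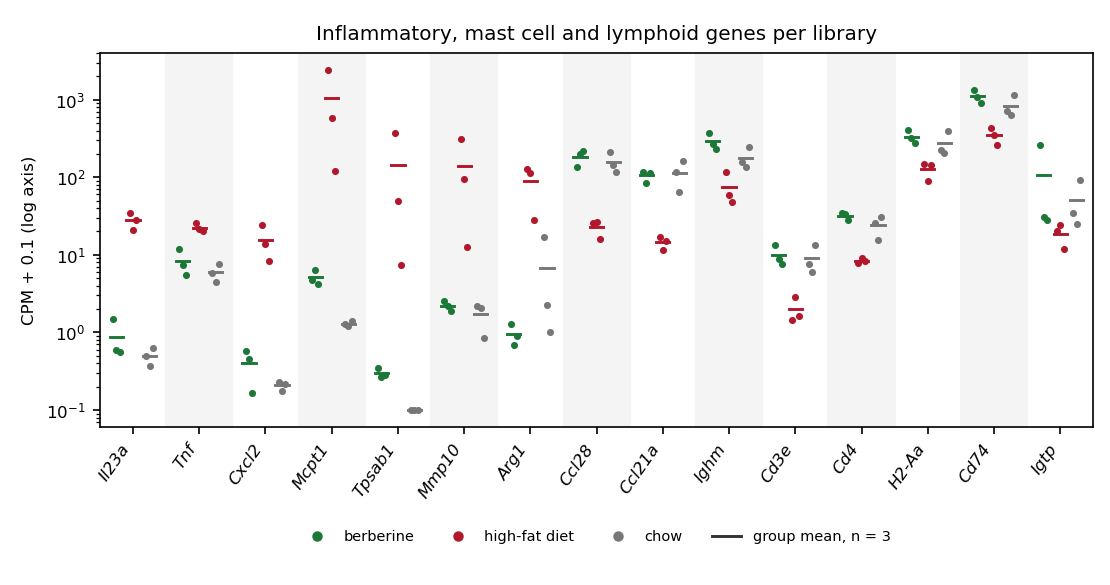
CPM + 0.1 on a log axis (y) in each library for 15 inflammatory, mast cell and lymphoid genes (x), coloured by group, with lines at the means of 3 libraries. From Il23a to Arg1 the high-fat diet points are the highest, with a wide spread for the mast cell genes, and from Ccl28 to Cd74 they are the lowest; Igtp is highest in 1 berberine library.

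Mast cell genes had 8 of 11 lower (against 14.9% of all genes), with a median of -7.23, and 1 higher. Of the 11, 7 averaged under 1 FPKM over the berberine and chow libraries and passed the filter through the high-fat diet group, 6 of them among the 8, so this count is only a description. Mcpt1, a mucosal mast cell protease, was at 4.57, 6.36 and 4.14 CPM with berberine and 2434, 584 and 119.5 on the high-fat diet (log2 fold change -7.70 ± 1.07, adjusted p = 0.0014). Tpsab1, a tryptase, was at 0.252, 0.164 and 0.181 CPM with berberine and 374, 48.8 and 7.37 on the high-fat diet (log2 fold change -9.50 ± 1.73, adjusted p = 0.00791). The high-fat diet libraries differed widely among themselves and replicate 1 was the highest; without it the log2 fold changes were -6.11 and -7.12. Antimicrobial genes had 8 of 18 lower and 2 higher, with 5 lower without any 1 of the berberine libraries. Of the 8, 3 averaged under 1 FPKM outside the high-fat diet group and passed the filter through it. Lcn2, lipocalin 2, a marker of gut inflammation, was at 2.75, 1.34 and 1.70 CPM with berberine and 216, 65.9 and 21.3 on the high-fat diet (log2 fold change -5.72 ± 0.85, adjusted p = 0.00193), and at -4.48 without high-fat diet replicate 1. S100a8, a neutrophil protein, was 10.9-fold lower (log2 fold change -3.45 ± 0.79, adjusted p = 0.0118). Pigr, which carries IgA across the epithelium, was at 3089, 4212 and 4331 CPM with berberine and 688, 1221 and 729 on the high-fat diet (log2 fold change 2.14 ± 0.35, adjusted p = 0.00296). Saa1, serum amyloid A1, was at 1515, 1893 and 2664 CPM with berberine and 451, 436 and 261 on the high-fat diet (log2 fold change 2.40 ± 0.38, adjusted p = 0.00238). These rose where other members fell, and all their berberine libraries were above all high-fat diet libraries. S100a8 is also on the neutrophil list, of which 6 of 15 genes were tested, with 3 lower and 0 higher. Of the 3, 2 averaged under 1 FPKM outside the high-fat diet group and passed the filter through it, so this count is only a description.

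Of 12 prostaglandin genes tested 4 were higher, 1 lower and 7 not called, with a median of 0.08. Hpgd, the enzyme that inactivates prostaglandin E2, was at 101, 133 and 153 CPM with berberine and 27.9, 22.6 and 27.9 on the high-fat diet (log2 fold change 2.30 ± 0.30, adjusted p = 0.001). Slco2a1, the transporter that takes prostaglandins into cells, was at 128, 131 and 131 CPM with berberine and 35.1, 32.9 and 9.35 on the high-fat diet (log2 fold change 2.33 ± 0.41, adjusted p = 0.00401). Ptger3, a prostaglandin E2 receptor, was 7.05-fold higher (log2 fold change 2.82 ± 0.43, adjusted p = 0.0021). Ptgs2, cyclooxygenase 2, which makes prostaglandins, was at 22.98, 14.9 and 12.2 CPM with berberine and 102, 52.4 and 8.36 on the high-fat diet (log2 fold change -1.70 ± 0.71, adjusted p = 0.101). High-fat diet replicate 3 was below all berberine libraries. Without it Ptgs2 was called lower (-2.22), and without replicate 1 it was at -0.84. Matrix proteases had 7 of 16 lower and none higher. Of the 7, 2 averaged under 1 FPKM outside the high-fat diet group and passed the filter through it. Mmp14, a membrane protease, was at 54.1, 64.6 and 45.3 CPM with berberine and 217, 194 and 120.1 on the high-fat diet (log2 fold change -1.69 ± 0.23, adjusted p = 0.00124). Mmp10, stromelysin 2, was at 2.42, 2.07 and 1.81 CPM with berberine and 314, 95.4 and 12.7 on the high-fat diet (log2 fold change -6.06 ± 1.08, adjusted p = 0.00404), again with high-fat diet replicate 1 highest, and at -4.67 without it. Arg1, arginase 1 of myeloid cells, was at 1.20, 0.596 and 0.807 CPM with berberine and 127, 113 and 28.3 on the high-fat diet (log2 fold change -6.69 ± 1.23, adjusted p = 0.00468). The macrophage genes C1qa (log2 fold change -0.15 ± 0.23, adjusted p = 0.647) and Adgre1 (log2 fold change -0.13 ± 0.30, adjusted p = 0.772) were not called. The list of macrophage and monocyte genes went both ways. Of its 15 tested members 2 were higher, 3 lower and 10 not called, with a median of -0.13.

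All 11 genes of MHC class II presentation rose, against 15.8% of all genes, with a median of 1.67. Cd74, the invariant chain, was at 1321, 1088 and 907 CPM with berberine and 436, 350.4 and 257 on the high-fat diet (log2 fold change 1.67 ± 0.28, adjusted p = 0.00329). H2-Aa was at 408, 317 and 275 CPM with berberine and 148, 89.2 and 142 on the high-fat diet (log2 fold change 1.401 ± 0.30, adjusted p = 0.00881). H2-Eb1 was at 323, 269 and 225 CPM with berberine and 126, 89.5 and 98.4 on the high-fat diet (log2 fold change 1.38 ± 0.29, adjusted p = 0.00782). Ciita, the master activator of this class, was at 97.1, 60.1 and 45.2 CPM with berberine and 23.9, 18.2 and 11.2 on the high-fat diet (log2 fold change 1.92 ± 0.35, adjusted p = 0.0047). Berberine replicate 1 was the highest library for each of the 4 and the groups did not overlap. H2-Ab1 and H2-DMa were also called but lost their call when single libraries were left out, H2-Ab1 without berberine replicates 1 and 2 or any high-fat diet library (log2 fold changes from 0.90 to 1.43) and H2-DMa without any 1 of the 6 (1.13 to 1.39). With berberine replicate 3 as the only berberine library none of the 11 was called. The promoters of H2-Aa and H2-Eb1 are shown because the members moved together and class II promoters carry a conserved Y box. Its core GATTGG was searched on both strands and is in capitals.

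H2-Aa promoter, chr17:34287824-34287953, - strand: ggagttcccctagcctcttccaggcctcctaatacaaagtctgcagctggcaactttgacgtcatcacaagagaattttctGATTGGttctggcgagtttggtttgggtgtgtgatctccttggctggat

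H2-Eb1 promoter, chr17:34305737-34305866, + strand: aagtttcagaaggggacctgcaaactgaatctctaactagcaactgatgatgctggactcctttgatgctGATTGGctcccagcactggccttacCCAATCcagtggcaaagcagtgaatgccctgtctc

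The core starts 49 bases before the start in H2-Aa and 60 and 35 bases before it in H2-Eb1. Of the 11 genes, 8 had a promoter in the RefSeq table with 9 windows, and 8 of the 9 (88.9%) held the core in the 250 bases before the start, at least 1 for each gene, against 14.6% of all windows. H2-Ab1, Cd74 and Ciita had no window in the table.

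B cell genes rose as a complete list, 16 of 16, with a median of 2.04, and these cells carry MHC class II. Ighm, the heavy chain of IgM, was at 374, 269 and 231 CPM with berberine and 118, 59.2 and 48.2 on the high-fat diet (log2 fold change 1.95 ± 0.38, adjusted p = 0.00573). Cxcr5, the receptor that guides B cells to follicles, was at 55.1, 31.3 and 26.8 CPM with berberine and 10.7, 6.10 and 4.52 on the high-fat diet (log2 fold change 2.40 ± 0.43, adjusted p = 0.00397). The order of the libraries was nearly that of the class II genes, with berberine replicate 1 highest and high-fat diet replicate 1 the highest of its group. The list level of B cell genes was 2.5, 1.85 and 1.6 with berberine and 0.681, -0.222 and -0.459 on the high-fat diet, and its part in the class II values was not tested. With berberine replicate 3 as the only berberine library, 1 of the 16 was called. Whether a lymphoid follicle was in the sampled piece is not given in the sources used here.

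T and NK cell genes had 12 of 17 higher and 2 lower. Of the 2, 1 averaged under 1 FPKM outside the high-fat diet group and passed the filter through it. Cd3e, of the T cell receptor complex, was at 13.2, 8.86 and 7.51 CPM with berberine and 1.34, 2.78 and 1.53 on the high-fat diet (log2 fold change 2.39 ± 0.43, adjusted p = 0.00414). Cd4, the helper T cell co-receptor, was at 34.5, 33.1 and 28.4 CPM with berberine and 7.72, 8.97 and 8.24 on the high-fat diet (log2 fold change 1.94 ± 0.25, adjusted p = 0.00095). Ccr7, the homing receptor of naive T cells, was at 35.9, 24.1 and 19.8 CPM with berberine and 5.25, 3.899 and 1.63 on the high-fat diet (log2 fold change 2.89 ± 0.52, adjusted p = 0.00416). Each of these markers was apart between groups. Gzmb, the cytotoxic protease granzyme B, went the other way, at 1.03, 0.506 and 0.198 CPM with berberine and 54.5, 10.7 and 2.69 on the high-fat diet (log2 fold change -5.30 ± 1.32, adjusted p = 0.017). Its call was lost without berberine replicates 2 and 3 (-5.22 and -4.91), and it was at -5.99 and -3.52 without berberine replicate 1 and high-fat diet replicate 1. With berberine replicate 3 as the only berberine library 3 of the list were called higher. Foxp3 and Cd8a were too low to be tested. Plasma cell genes had 5 of 15 higher and 1 lower. Derl3, of the secretory pathway, was at 8.99, 11.7 and 10.3 CPM with berberine and 1.87, 2.34 and 1.03 on the high-fat diet (log2 fold change 2.57 ± 0.40, adjusted p = 0.0024). Irf4, the factor of plasma cell fate, was at 34.5, 35.5 and 23.6 CPM with berberine and 8.65, 10.2 and 4.11 on the high-fat diet (log2 fold change 2.03 ± 0.34, adjusted p = 0.00297). Sdc1, a surface proteoglycan that epithelium also makes, was lower (log2 fold change -1.49 ± 0.21, adjusted p = 0.00153).

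Interferon response genes were called less evenly, with 6 of 27 higher and 1 lower (25.9% called, against 30.7% of all genes). Irf1 was at 369, 154 and 196 CPM with berberine and 102, 109 and 108 on the high-fat diet (log2 fold change 1.17 ± 0.28, adjusted p = 0.0152). Igtp, an interferon-γ-induced GTPase, was at 263, 30.5 and 27.8 CPM with berberine and 20.4, 23.9 and 11.6 on the high-fat diet (log2 fold change 2.52 ± 0.92, adjusted p = 0.0674). Berberine replicate 1 was far above all other libraries for Igtp, and without it the log2 fold change was 0.65, whereas Igtp was called without berberine replicate 3 (2.97). The list level was 1.29 in berberine replicate 1 and 0.319 and 0.601 in replicates 2 and 3. The count of higher members was 3 with scaling by library totals, 12 with DESeq2, and 2 with limma at either pseudocount. It was 2 without berberine replicate 1 or high-fat diet replicate 1 or 3. Usp18, which damps interferon signalling, was lower, at 7.46, 4.33 and 10.5 CPM with berberine and 63.8, 34.4 and 26.0 on the high-fat diet (log2 fold change -2.48 ± 0.41, adjusted p = 0.00285).

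**Figure D5:**
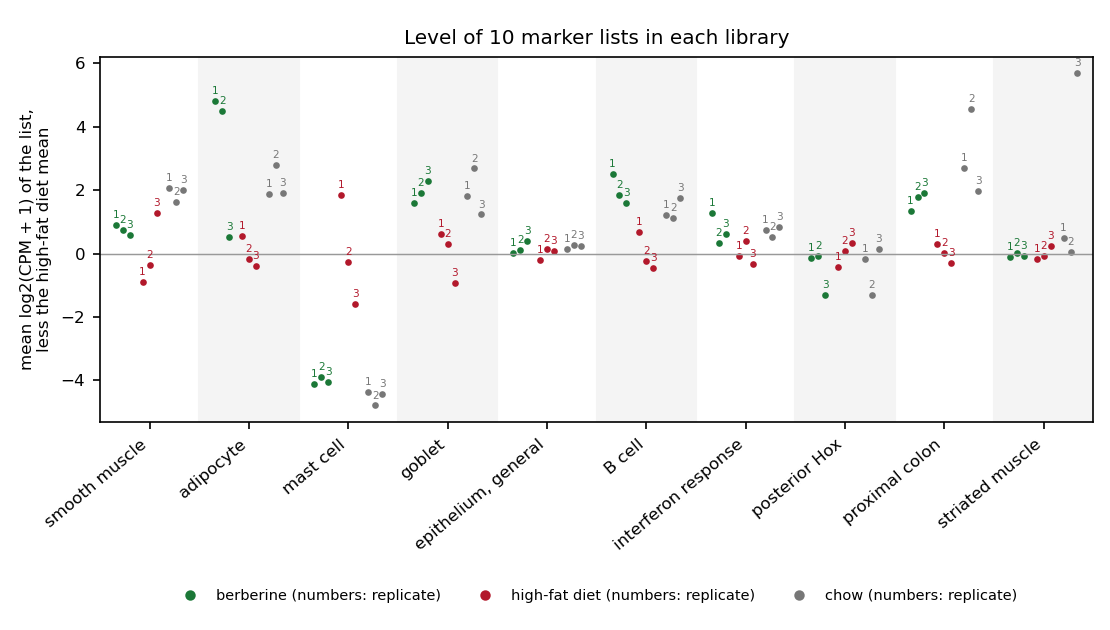
Mean log2(CPM + 1) of the tested members of 10 marker lists (x), less the high-fat diet mean (y, log2 units), in each library; numbers beside the points are replicates and colours are groups. Adipocyte genes are highest in berberine replicates 1 and 2, at 4.8 and 4.49, with chow between 1.89 and 2.79, mast cell genes spread from -1.6 to 1.86 over the high-fat diet libraries, and general epithelial genes lie close to 0 in all libraries.

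The remaining cell types of the gut wall differed less or unevenly. None of 12 smooth muscle genes was called (median 0.52), but without high-fat diet replicate 3, 11 were higher, with a median of 1.36. Myh11, smooth muscle myosin, was at 1125, 974 and 671 CPM with berberine and 173, 360.0 and 1079 on the high-fat diet (log2 fold change 0.78 ± 0.58, adjusted p = 0.333), with high-fat diet replicate 3 as high as the berberine libraries. Without that library Myh11 was called (1.78). Of 17 fibroblast genes 3 were higher and 1 lower (23.5% called, against 30.7% of all genes), and the groups overlapped for most. Dpt, dermatopontin of the matrix, was at 92.4, 98.5 and 84.6 CPM with berberine and 16.6, 17.7 and 20.9 on the high-fat diet (log2 fold change 2.32 ± 0.15, adjusted p = 5.39e-05). Col3a1, collagen III, was at 492, 666 and 433 CPM with berberine and 482, 473 and 337 on the high-fat diet (log2 fold change 0.30 ± 0.25, adjusted p = 0.385). Of 8 enteric neuron and glia genes none was higher and 1 lower, with 6 higher without high-fat diet replicate 3, 3 with DESeq2 and 2 with limma. Endothelial genes had 4 of 9 higher and 2 lower, with 2 higher without berberine replicate 2. Prox1, given above among the genes with the smallest p-values, was 1 of the 2 lower members. Both lower members averaged under 1 FPKM outside the high-fat diet group and passed the filter through it. Kdr, the VEGF receptor 2, was at 21.4, 29.1 and 27.8 CPM with berberine and 15.5, 10.5 and 6.83 on the high-fat diet (log2 fold change 1.25 ± 0.29, adjusted p = 0.0122). Of 10 adipocyte genes 8 were called higher, but only 3 did not overlap between the groups, against 50.4% of all genes. Fabp4, the fatty acid binding protein of adipocytes and capillaries, was at 397, 360.3 and 22.5 CPM with berberine and 19.8, 10.1 and 17.0 on the high-fat diet (log2 fold change 4.06 ± 0.89, adjusted p = 0.0102), with replicate 3 just above the high-fat diet libraries, and at 0.52 without replicates 1 and 2. Lipe, hormone-sensitive lipase, was at 62.3, 59.8 and 17.3 CPM with berberine and 11.99, 13.5 and 12.5 on the high-fat diet (log2 fold change 1.87 ± 0.43, adjusted p = 0.0115). The count was 5 without berberine replicate 1 or 2, 3 without high-fat diet replicate 2, 4 without high-fat diet replicate 3, 3 and 4 with limma at pseudocounts of 1 and 0.1, and 1 with replicate 3 as the only berberine library. Among the position markers, Hoxa9 was lower (log2 fold change -1.18 ± 0.18, adjusted p = 0.00186) and Hoxa13, of the hindgut end, higher (log2 fold change 0.90 ± 0.19, adjusted p = 0.00916), and the other 9 posterior Hox genes tested were not called. Hoxd13 was at 213, 274 and 28.5 CPM with berberine and 137, 227 and 319 on the high-fat diet (log2 fold change -0.41 ± 1.14, adjusted p = 0.812), with berberine replicate 3 far below the rest. Proximal colon genes had 5 of 8 higher, or 3 without any 1 of the 6 libraries compared except high-fat diet replicate 2, among them Slc37a2, a sugar phosphate exchanger, at 106, 210.5 and 192 CPM with berberine and 8.68, 8.06 and 4.48 on the high-fat diet (log2 fold change 4.58 ± 0.58, adjusted p = 0.000921). A difference in the stretch of colon sampled between the groups was not tested.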

How the data were processed

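RNA of colonic tissue from WT mice was sequenced in 9 libraries of 3 groups, 51961764 to 69007117 estimated counts each. The deposited table holds estimated counts and FPKM per gene. The submitters' processing notes name cutadapt 1.9, HISAT2 2.0.4, UMI-tools, StringTie 1.3.4d, edgeR, DESeq2 and the GRCm38 build; the labels' protocols describe poly(A) selection, a strand-marking kit and molecular identifiers. Low counts peak at 4 (10067 values, against 3831 at 3 and 2249 at 5) and 8, but only 34.9% of those from 1 to 40 are multiples of 4; 4 counts were taken as 1 fragment, which no source states, and whether duplicates were removed by identifier is not given in the sources used here. The counts would then overstate the number of molecules read, while the tests rest on the spread between libraries.

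Counts were rounded to whole numbers and fitted with edgeR 4.0.16 (R 4.3.3, TMM scaling, quasi-likelihood test, all 9 libraries, which share 1 estimate of the spread). Genes averaging 1 FPKM or more (14506) held 98.85% of counts. Every adjusted p is from this test with Benjamini-Hochberg adjustment over those genes unless another tool is named, called under 0.05. The SE is the absolute log2 fold change divided by the square root of the F statistic. CPM are per 1000000 of the TMM-scaled library size. Alternatives were other scalings, DESeq2 1.42.0, other filters, limma 3.58.1 on log2(FPKM + 1) and log2(FPKM + 0.1), a replicate block, counts divided by 4, and leaving out libraries. The steps were tested on simulated data.

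Genes were named by rule: the 12 highest and 12 lowest fold changes among called genes whose groups did not overlap, with at least 5 CPM in the higher group; the 10 smallest p-values; 4 members per list with the smallest p; and further members as markers or contrasts. Predicted models and immune receptor segments were left out of the size and p rules, and some genes that met a rule are not reported here. The comparison, the lists and the members were chosen with earlier results of these data known. Promoter windows were matched by symbol to RefSeq sequences. Figures were drawn with matplotlib 3.10.9.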

Additional observations from a re-analysis of the deposited data

How the results depend on the processing

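The count of 4460 changed genes ran from 4211 with no filter on low values to 5474 with DESeq2 over the 10 alternatives that kept all libraries of the comparison, and from 2960 (without berberine replicate 2) to 4740 (without chow replicate 3) when single libraries were left out; higher genes then ran from 1588 to 2403, lower genes from 1372 to 2337, genes changed by at least 2-fold from 1933 to 2415 and called list members from 317 to 454. Without berberine replicates 1 and 2 together, an alternative chosen after seeing the data, 1321 genes were called, 704 higher and 617 lower, 1152 of them by at least 2-fold, and 167 list members in place of 424. That fit takes the spread of the lone berberine library from the other groups, and with fewer samples it calls fewer genes by construction. No named gene was called in the opposite direction in any alternative. Among the 199 called genes named, 6 lost the call in some leave-one-out fit and 4 in another alternative: Ces2d-ps (1.62 with limma on log2(FPKM + 1)), Mybpc1 (limma and counts divided by 4, adjusted p up to 0.171), and H2-Ab1 and H2-DMa (library totals and limma, adjusted p 0.051 to 0.0523). Ahr gained a call with library totals, Cpt1a and Muc2 with only the 6 libraries, Hsp90ab1 with DESeq2 and limma, and Igtp and Ptgs2 with DESeq2; the cause was not tested. The correlations of same-numbered deviations from the group means were -0.00324, 0.049 and 0.0805 for replicates 1, 2 and 3. Berberine replicates 2 and 3 correlated best with the high-fat diet library of their own number. Berberine replicate 1 correlated best with high-fat diet replicate 2 (0.0343). So few values cannot decide whether replicate numbers pair the samples. The fit with a replicate block called 4286 genes, 2247 higher and 2039 lower, with 8 DNA replication genes lower and 3 proximal colon genes higher. About 4 counts were taken as 1 fragment; dividing all counts by 4 gave 4488 calls. Genes near 0 in one group are limited by depth, and their fitted fold changes depend on the prior count.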

Other observations

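Immediate early genes respond to growth factors and to handling of tissue within minutes. Of 17 tested, 2 were higher and 2 lower (23.5% called, against 30.7% of all genes). The count of higher genes was 1 without any 1 of the libraries compared except high-fat diet replicate 1, and 4 with a replicate block. Jun, part of the AP-1 factor, was at 126, 162 and 133 CPM with berberine and 394, 357 and 389 on the high-fat diet (log2 fold change -1.44 ± 0.15, adjusted p = 0.000386). Dusp1, the phosphatase that switches off MAP kinases, was at 149, 110.3 and 93.7 CPM with berberine and 45.1, 47.0 and 36.2 on the high-fat diet (log2 fold change 1.46 ± 0.21, adjusted p = 0.00161). Fos, the usual partner of Jun, had overlapping groups (log2 fold change 0.38 ± 0.27, adjusted p = 0.314), as did Egr1 (log2 fold change -0.10 ± 0.16, adjusted p = 0.659). The berberine values of Jun lay beside those on chow, at 168, 194 and 144 CPM.

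Junction genes had 4 of 18 higher (against 15.8% of all genes) and 1 lower, with 1 higher without berberine replicate 3 or high-fat diet replicate 1 or 3, and 2 without berberine replicate 1 or 2. Occludin, Ocln, was at 117, 108 and 92.1 CPM with berberine and 59.8, 78.0 and 49.8 on the high-fat diet (log2 fold change 0.76 ± 0.17, adjusted p = 0.0122). Abcc2, an efflux pump of liver and small intestine, was 1 of the 2 drug metabolism genes that fell, at 0.446, 0.432 and 1.05 CPM with berberine and 54.1, 25.7 and 10.7 on the high-fat diet (log2 fold change -5.55 ± 0.71, adjusted p = 0.000986), and at -4.80 without high-fat diet replicate 1. Krt15, a keratin of stratified epithelia and of long-lived crypt cells, was at 1.45, 1.97 and 0.610 CPM with berberine and 27.4, 40.7 and 43.7 on the high-fat diet (log2 fold change -4.79 ± 0.87, adjusted p = 0.0045). Of 9 squamous epithelium genes tested 2 were lower and none higher, with 4 lower with DESeq2 and without chow replicate 1 or 2 and 6 with only the 6 libraries compared, and none of 11 striated muscle genes was called. Ly6c2, a marker of blood monocytes, was at 28.6, 20.4 and 18.6 CPM with berberine and 7.18, 10.9 and 4.96 on the high-fat diet (log2 fold change 1.55 ± 0.31, adjusted p = 0.00647). Fatty acid synthesis had 6 of 20 genes higher and 3 lower, with 3 higher without berberine replicate 1, high-fat diet replicate 1 or high-fat diet replicate 3, and 1 lower without berberine replicate 2 or 3 or high-fat diet replicate 2.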
